A study of Mus musculus with 6 samples.

Results

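Versican, a cartilage link protein and 8 small leucine-rich proteoglycans and their relatives were described in fetal mouse lung with and without a Cre transgene aimed at mesenchyme. The members were all probe sets whose platform gene symbol was Vcan, Hapln1, Dcn, Lum, Bgn, Ogn, Aspn, Chad, Prelp or Fmod. They came to 31 probe sets of 10 genes, among 45037 probe sets and 18193 named genes on the array. RNA came from 6 whole lungs at E18.5, shortly before birth, with 1 array for each animal. The 3 control animals had the genotype Nfib f/f, with part of both copies of the transcription factor gene Nfib flanked by loxP sites and no Cre named. The other 3 had the same floxed alleles together with Dermo1-Cre, an allele in which Twist2 (Dermo1) drives the recombinase so that floxed genes are cut out in mesenchymal cells. Epithelial, endothelial and blood cells of these lungs are not the usual targets of that driver.

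The groups are called control and Cre lungs after their labels alone. The brightest of 7 Nfib probe sets read 10.24, 10.32 and 10.17 on the control arrays and 11.24, 11.16 and 11.49 on the Cre arrays, so the signal of this probe set was higher in Cre lungs (limma adjusted p = 0.0049). Of the 6 Nfib probe sets tested 5 rose, by 1.04 to 1.14 on the log2 scale, and the sixth had a difference of -0.11 (adjusted p = 0.71). The sources used here do not place those probes relative to the deleted part of Nfib, and every direction below rests on the labels. Defining lung markers were present, with Sftpc at 12.73 ± 0.69 and 12.66 ± 0.24 (SD, n = 3 each) in control and Cre lungs and the lung mesenchyme gene Tbx4 at 10.27 ± 0.03 and 10.27 ± 0.09 (SD, n = 3 each). Cardiac muscle markers varied between arrays, with a mean level of 14 genes from 7.26 to 9.12 in control and from 5.75 to 7.71 in Cre lungs, and 1 of the 14, Myh7, fell. Skeletal muscle markers averaged 7.68 on control replicate 1 and 2.97 to 4.16 on the other 5 arrays, with 0 of 4 tested genes passing. Of 12 lung epithelial markers 5 fell (Aqp5, Sftpb, Sftpd, Sftpa1 and Pdpn), only 1 had a positive difference, and the median was -0.69. The mean level of the 12 ran from 10.02 to 10.48 in control and from 9.48 to 9.58 in Cre lungs. Among other cell types, 0 of 10 endothelial and 0 of 3 tested liver markers passed. Only 1 of the 10 endothelial markers had a positive difference, and their median was -0.31. Their mean level ran from 9.72 to 9.80 in control and from 9.25 to 9.61 in Cre lungs. The mean of 5 liver markers varied widely, from 1.72 to 6.65 in control and from 2.66 to 5.65 in Cre lungs. Values are log2 signals, in which a difference of 1 is a 2-fold difference, and a probe set is a group of short probes designed for 1 transcript. Signals below about 4, the level of the filter on dim probe sets, carry much noise. Differences are Cre minus control on the log2 scale, with the standard error (SE) of a limma fit over 27022 probe sets. A probe set passed when its Benjamini-Hochberg adjusted p was below 0.05.

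Proteoglycans are core proteins that carry glycosaminoglycan chains. Versican is a large chondroitin sulfate proteoglycan that binds the polysaccharide hyaluronan in the loose, hydrated matrix of growing tissues, and link proteins such as Hapln1 hold that bond in place. The small leucine-rich proteins sit on collagen fibrils instead: decorin, biglycan and asporin (Dcn, Bgn, Aspn), lumican, fibromodulin and prolargin (Lum, Fmod, Prelp), osteoglycin (Ogn) and chondroadherin (Chad) bind collagen, and several of them set the width and spacing of fibrils or bind growth factors. In the lung they are made mainly by fibroblasts, smooth muscle, mesothelium and the cartilage of the airways.

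Genes of this group lie in clusters. In the RefSeq gene order Hapln1 and Vcan are direct neighbours among protein-coding genes, as are Dcn and Lum, and Prelp and Fmod. Aspn and Ogn flank Omd, which encodes osteomodulin. Promoters of the members that moved are shown with matches to TTGGC, the core sequence bound by the family of the floxed gene, Nfib. Whether Nfib acts on these genes was not tested. Each line gives the 250 bases before the transcript start, 5′ to 3′ on the strand of the gene, from RefSeq on GRCm38.p6, with TTGGC or its complement GCCAA in capitals.
Vcan (chr13:89742513-89742762, minus strand): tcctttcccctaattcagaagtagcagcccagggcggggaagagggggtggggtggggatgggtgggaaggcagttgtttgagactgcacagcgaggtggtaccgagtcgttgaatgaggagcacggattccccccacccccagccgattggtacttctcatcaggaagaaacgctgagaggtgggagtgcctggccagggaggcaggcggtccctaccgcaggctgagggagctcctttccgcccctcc
Fmod (chr1:134037004-134037253, plus strand): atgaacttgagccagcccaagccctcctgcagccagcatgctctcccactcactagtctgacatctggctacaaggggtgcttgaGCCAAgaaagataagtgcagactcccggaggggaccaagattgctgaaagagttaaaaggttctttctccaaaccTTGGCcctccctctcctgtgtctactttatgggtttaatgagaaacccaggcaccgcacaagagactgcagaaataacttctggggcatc
Ogn (chr13:49607765-49608014, plus strand): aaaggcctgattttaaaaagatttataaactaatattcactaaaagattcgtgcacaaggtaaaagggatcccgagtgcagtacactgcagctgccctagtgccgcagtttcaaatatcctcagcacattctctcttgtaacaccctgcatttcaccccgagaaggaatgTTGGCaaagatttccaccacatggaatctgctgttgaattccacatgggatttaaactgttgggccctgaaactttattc
Aspn (chr13:49544193-49544442, plus strand): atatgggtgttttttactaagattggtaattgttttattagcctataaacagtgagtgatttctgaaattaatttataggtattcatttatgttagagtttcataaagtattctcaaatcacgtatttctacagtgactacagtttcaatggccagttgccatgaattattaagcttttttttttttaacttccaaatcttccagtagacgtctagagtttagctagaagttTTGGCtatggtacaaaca
Chad (chr11:94564797-94565046, plus strand): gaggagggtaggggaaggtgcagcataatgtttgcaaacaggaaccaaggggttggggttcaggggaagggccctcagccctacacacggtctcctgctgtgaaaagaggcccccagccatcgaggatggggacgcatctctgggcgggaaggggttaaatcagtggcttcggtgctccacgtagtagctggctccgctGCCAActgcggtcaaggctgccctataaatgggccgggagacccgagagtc
Sequences were at hand for 8 of the 10 genes, all but Dcn and Lum. TTGGC, searched on both strands, was found in 5 of these 8 windows, those of Fmod and Prelp with 2 matches each and of Ogn, Aspn and Chad with 1 each. It was found in 41.5% of all 32851 promoter windows of the same length. The full palindrome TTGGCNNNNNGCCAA, which contains the core at each end, was found in 0 of the 8 and in 0.0365% of all windows. No match was found for Vcan, which says only that these letters are not in this window. These matches are descriptions of sequence and were not tested as sites.

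Vcan and Fmod were higher and Ogn, Aspn and Chad were lower in Cre lungs, while Hapln1, Dcn, Lum, Bgn and Prelp had no probe set that passed. Of the 31 member probe sets 24 reached the filter and were tested, and 7 of these rose, 4 fell and 13 did not pass. Over the whole array 3.56% of tested probe sets passed, 1.41% as higher and 2.16% as lower. Counted by the brightest probe set of each gene, 2 of the 10 members rose (Vcan, Fmod), 2 fell (Ogn, Chad) and 6 did not pass, against 1.92% higher and 3.04% lower of 12826 genes. Chad reached the filter only through its control arrays. The members were chosen with earlier results of these data known, so these shares stand side by side as description only. Probe sets of 1 gene share their transcript and are not independent. The median log2 difference of the 10 genes was -0.17, beside -0.01 for all genes. In RNA of whole lungs, fewer cells of a type and less RNA per cell cannot be told apart. The count of 11 member probe sets was 4, 3 and 3 without control replicate 1, 2 or 3 and 3, 5 and 5 without Cre replicate 1, 2 or 3, and it was 2 with the mean of the cardiac markers as a covariate, namely the brightest Vcan probe set and Chad, whose Cre arrays lay below the filter level.

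**Figure D1:**
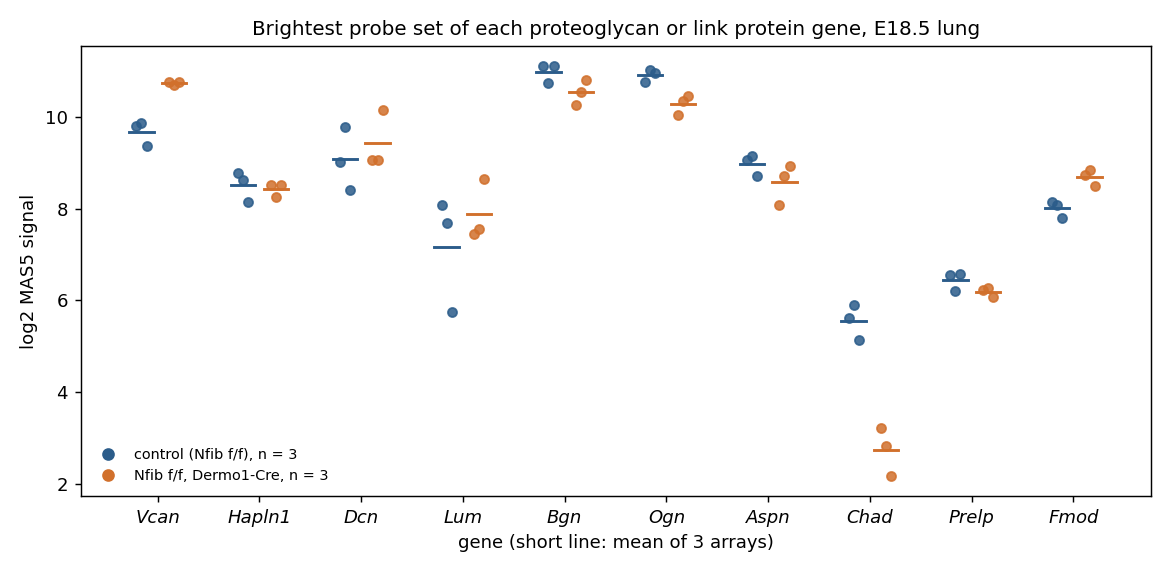
Log2 MAS5 signal (vertical axis) of the brightest probe set of each of the 10 genes (horizontal axis) on the 3 control (blue) and 3 Cre (orange) arrays, with a short line at each mean. The groups stand apart for Vcan and Fmod, with the Cre arrays higher, and for Ogn and Chad, with the Cre arrays lower; levels can be compared within a gene only.

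Vcan, the large hyaluronan-binding proteoglycan, rose about 2-fold. Its brightest probe set (1427256_at) read 9.79, 9.86 and 9.37 on the control arrays and 10.77, 10.68 and 10.77 on the Cre arrays. The groups did not overlap, and the Cre arrays lay within a narrower range than the controls. The means were 9.67 ± 0.27 and 10.74 ± 0.05 (SD, n = 3 each), 2.09-fold apart (difference 1.07 ± 0.13 SE, limma adjusted p = 0.0068). This probe set passed in all 19 alternative fits (limma adjusted p between 0.0034 and 0.047), including each of the 6 fits without 1 array. An exact two-sided permutation test of the same values gave p = 0.10, the smallest that 3 against 3 arrays allow.

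The other tested Vcan probe sets moved the same way. The second (1421694_a_at) read 8.21, 7.72 and 7.99 in control and 9.43, 8.59 and 9.38 in Cre lungs, which differ by 1.16 ± 0.22 SE on the log2 scale (limma adjusted p = 0.025). The third (1427257_at) read 7.79, 7.64 and 7.67 and then 8.88, 8.22 and 8.83, a difference of 0.94 ± 0.17 SE (adjusted p = 0.021). On both, Cre replicate 2 was the lowest of its group and still lay above every control array. Without 1 array the second passed in 2 of 6 fits and the third in 1 of 6, and neither passed with the cardiac covariate. The other 5 Vcan probe sets lay below the filter, with group means from -0.95 to 3.40. On 2 of these 5 the groups did not overlap, at differences of 1.47 and 0.99, which shrank to 0.03 and 0.01 when 64 was added to every linear signal. Of all tested probe sets 26.1% showed no overlap. That share was not computed below the filter, so the 2 of 5 is description only.

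Hapln1 encodes the link protein that locks versican and aggrecan to hyaluronan, and it lies beside Vcan on the chromosome. Its brightest probe set read 8.79, 8.61 and 8.15 in control and 8.52, 8.26 and 8.50 in Cre lungs, so the groups overlapped. The log2 difference was -0.09 ± 0.16 SE (limma adjusted p = 0.82), with a 95% interval from -0.46 to 0.28, and its sign turned without control replicate 1 and with the cardiac covariate. All 4 Hapln1 probe sets were tested and had negative differences, from -0.61 to -0.09, and none passed. The dimmest of them read 5.87, 5.68 and 6.25 against 5.49, 5.48 and 5.01, without overlap (difference -0.61 ± 0.23 SE, adjusted p = 0.18). The interval of the brightest probe set therefore did not reach the size of the Vcan difference.

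**Figure D2:**
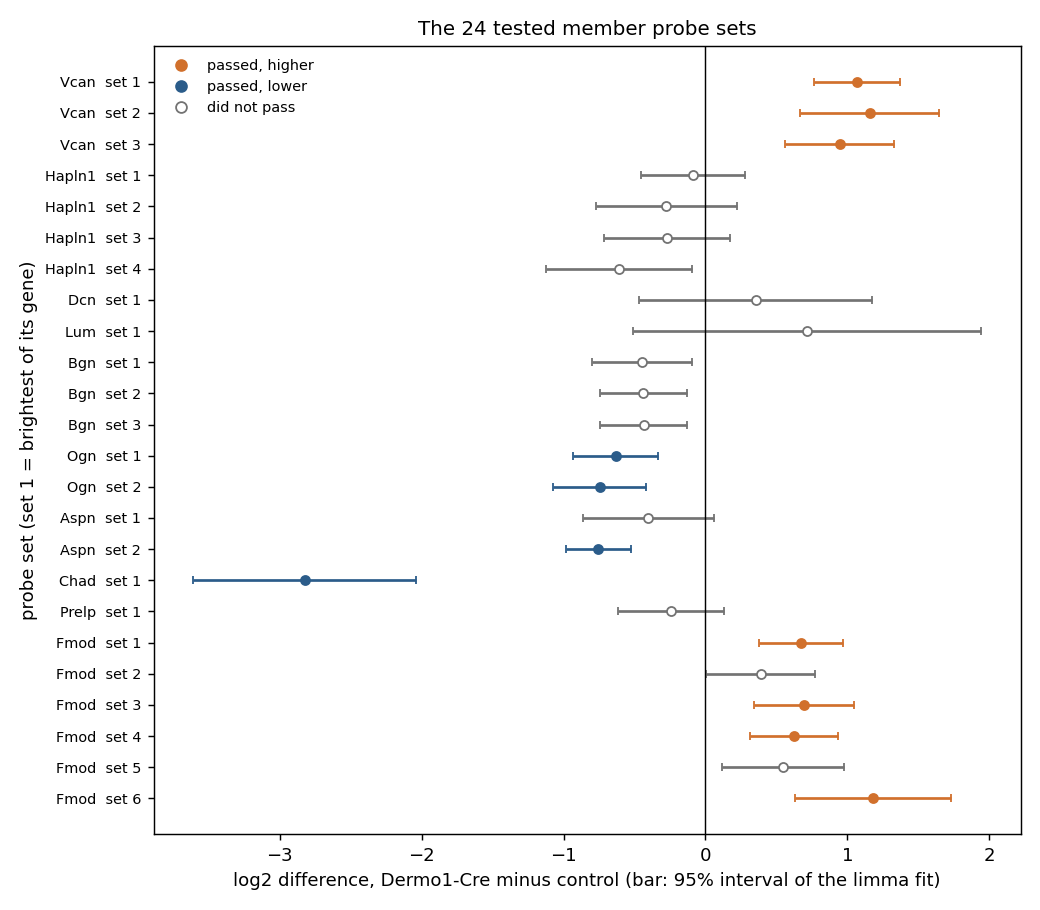
Log2 difference, Cre minus control (horizontal axis), of each of the 24 tested member probe sets (vertical axis, brightest first within a gene), with the 95% interval of the limma fit; filled points passed an adjusted p of 0.05. All 3 Vcan and 6 Fmod probe sets lie above 0, and all probe sets of Hapln1, Bgn, Ogn, Aspn, Chad and Prelp lie below it.

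Fmod encodes fibromodulin, a keratan sulfate proteoglycan that binds collagen fibrils and affects their growth. Its brightest probe set (1456084_x_at) read 8.14, 8.09 and 7.80 in control and 8.72, 8.83 and 8.49 in Cre lungs, and the groups did not overlap. The Cre mean was 1.59-fold higher (difference 0.67 ± 0.13 SE, limma adjusted p = 0.028). Of 6 Fmod probe sets, 4 rose and 2 did not pass, all 6 had positive differences, from 0.39 to 1.18, and 5 showed no overlap between groups, which held for 26.1% of all tested probe sets. The dimmest probe set had the largest difference, from 5.73, 5.83 and 5.01 to 6.73, 6.93 and 6.44 (1.18 ± 0.25 SE, adjusted p = 0.034), and with 64 added to the linear signals it came to 0.61. The only Fmod probe set whose name has the plain ending _at read 7.30, 7.27 and 6.72 and then 7.59, 7.53 and 7.33, which did not pass (0.39 ± 0.17 SE, adjusted p = 0.25). The other 5 end in _x_at, the platform's mark for probes that can match more than the intended transcript. In the fits without 1 array the brightest passed in 1 of 6 (without Cre replicate 3) and the other 3 that rose in 0 of 6, and none of the 4 passed with the cardiac covariate (adjusted p 0.10 to 0.19).

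Prelp, the neighbour of Fmod, encodes prolargin, which ties basement membranes to connective tissue. It read 6.54, 6.19 and 6.56 in control and 6.23, 6.27 and 6.07 in Cre lungs, with overlapping groups. The log2 difference was -0.24 ± 0.17 SE (limma adjusted p = 0.47; 95% interval -0.62 to 0.13). The second Prelp probe set was near the floor of the array, with group means of 1.36 and 0.58.

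**Figure D3:**
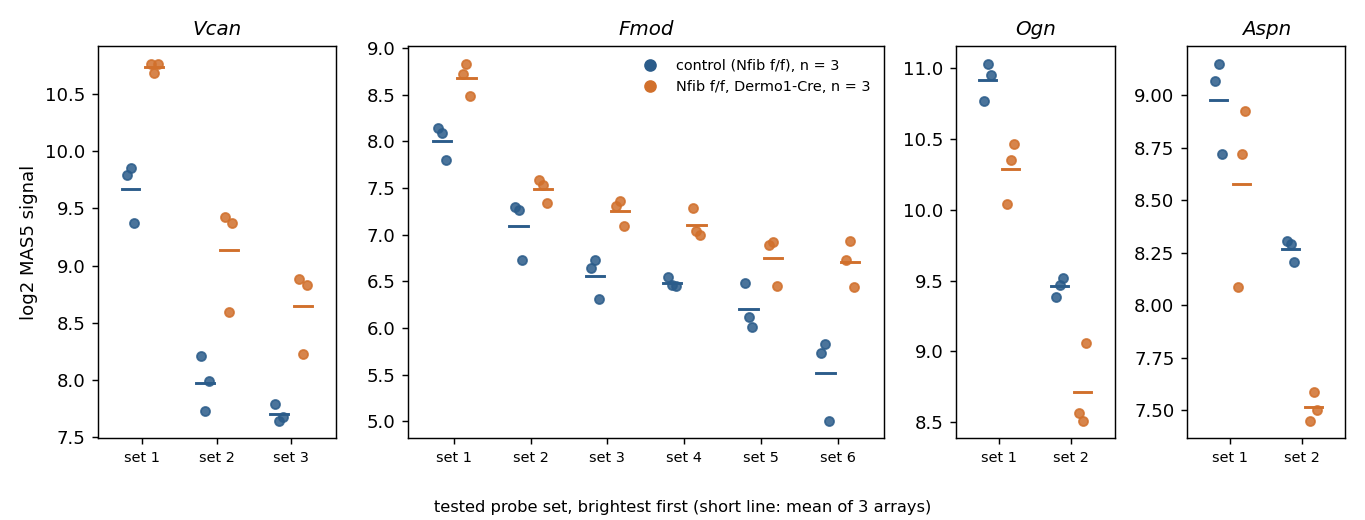
Log2 MAS5 signal (vertical axes, each with its own range) of every tested probe set of Vcan, Fmod, Ogn and Aspn on the 3 control (blue) and 3 Cre (orange) arrays, with a short line at each mean. Cre means lie above control means for all 3 Vcan and 6 Fmod probe sets and below them for both probe sets of Ogn and Aspn; only Fmod set 5 and Aspn set 1 overlap.

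Ogn encodes osteoglycin, also called mimecan, a small keratan sulfate protein of connective tissue. Its brightest probe set (1419663_at) read 10.77, 11.03 and 10.95 in control and 10.04, 10.35 and 10.46 in Cre lungs. The dimmer one (1419662_at) read 9.38, 9.47 and 9.52 and then 8.57, 8.51 and 9.06. On both probe sets every Cre array lay below every control array. The log2 differences were -0.63 ± 0.13 SE (1.55-fold lower, limma adjusted p = 0.036) and -0.75 ± 0.14 SE (adjusted p = 0.027). In the fits without 1 array the brightest passed in 0 of 6 and the dimmer in 1 of 6 (without Cre replicate 3), and with the cardiac covariate the adjusted p was 0.18 and 0.16.

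Aspn encodes asporin, a decorin relative with a run of aspartate residues in place of a glycosaminoglycan chain. The probe set 1416652_at read 8.31, 8.29 and 8.21 in control and 7.45, 7.59 and 7.50 in Cre lungs, with an SD of 0.05 and 0.07 (n = 3 each) within the groups. It fell by 0.75 on the log2 scale (SE 0.10, limma adjusted p = 0.0086) and was called in 17 of 18 alternatives, all but that with the cardiac covariate (adjusted p = 0.062). The brighter Aspn probe set, 1448421_s_at, gave another picture. It read 9.07, 9.15 and 8.72 against 8.09, 8.72 and 8.92, so Cre replicates 2 and 3 lay within the control range, and it did not pass (-0.40 ± 0.21 SE, adjusted p = 0.32). Its ending _s_at marks probes shared between transcripts. Its sign turned with the cardiac covariate.

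Of 9 markers of the mesothelium, the surface layer of the lung, 2 fell and 7 did not pass. The mean level of 9 markers ran from 7.75 to 7.97 in control and from 7.05 to 7.73 in Cre lungs. The 2 that fell were Msln (-1.55 ± 0.17 SE, limma adjusted p = 0.0049) and Krt19 (-0.63 ± 0.14 SE, adjusted p = 0.039). Only 1 of the 9 had a positive difference, the mesothelial transcription factor gene Wt1, at 5.15 ± 0.26 and 5.62 ± 0.57 (SD, n = 3 each). The median log2 difference of the 9 was -0.54. The part of this layer, and that of the cardiac muscle markers given above, in the lower Ogn and Aspn signals was not tested. The cardiac covariate was itself lower on average in Cre lungs, so fits with it cannot tell that part from the group difference. Omd, the gene between Aspn and Ogn, encodes osteomodulin and did not reach the filter (means 4.50 ± 1.02 and 3.25 ± 0.52, SD, n = 3 each).

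Chad encodes chondroadherin, a leucine-rich cartilage protein that binds collagen and integrins. Its only probe set (1420569_at) read 5.61, 5.90 and 5.14 in control and 3.20, 2.81 and 2.17 in Cre lungs. The groups stood nearly 2 log2 units apart at their nearest arrays, and the Cre mean of 2.73 lay below the filter level of 4.0, so the probe set reached the filter through the control arrays. The fitted log2 difference was -2.82 ± 0.35 SE (limma adjusted p = 0.0067; 0.012 when no filter was set), against a group at the noise level of the array. Its size depends on how low signals are treated: with 64 added to the linear signals the difference was -0.65. No fold change is given for this gene.

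No cartilage marker passed beside Chad. Of 13 tested cartilage genes none rose or fell, 9 had positive differences, and the median was 0.13. The collagen gene Col9a1, found mainly in cartilage, read 6.61, 6.59 and 5.28 in control and 7.40, 7.27 and 7.84 in Cre lungs (1.34 ± 0.33 SE, limma adjusted p = 0.060), and the cartilage cytokine gene Cytl1 had a difference of 1.11 ± 0.29 SE (adjusted p = 0.074). The transcription factor gene Sox9 had a difference of 0.57 ± 0.16 SE (adjusted p = 0.079). Matn4 went the other way without overlap, from 8.20, 7.73 and 8.18 to 7.45, 7.58 and 6.74 (-0.78 ± 0.22 SE, adjusted p = 0.089). The defining cartilage collagen gene Col2a1 was dim in both groups, at 4.87 ± 1.05 and 4.76 ± 0.19 (SD, n = 3 each), and Matn1 was near the floor, at 1.72 ± 1.96 and 1.70 ± 1.15 (SD, n = 3 each). The mean log2 signal over all 16 genes of the list, tested or not, ran from 4.65 to 5.52 in control and from 4.96 to 5.44 in Cre lungs.

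Bgn encodes biglycan, which carries chondroitin or dermatan sulfate chains and resembles decorin. All 3 of its probe sets were lower on average by nearly the same amount, with log2 differences from -0.45 to -0.44 and limma adjusted p from 0.11 to 0.16, and none passed. The brightest read 11.10, 10.75 and 11.10 in control and 10.27, 10.53 and 10.81 in Cre lungs, where Cre replicate 3 overlapped the controls. The second read 10.70, 10.56 and 11.02 and then 10.17, 10.37 and 10.42, without overlap. The 95% intervals, not adjusted for the number of probe sets, ran from -0.80 to -0.09 for the brightest and from -0.75 to -0.13 for the second.

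Dcn and Lum, the neighbouring genes of decorin and lumican, ranged more widely between lungs of 1 group than the group means differed. Decorin binds collagen and transforming growth factor beta, and lumican is a keratan sulfate proteoglycan of fibrils. Dcn read 9.02, 9.79 and 8.41 in control and 9.05, 9.07 and 10.16 in Cre lungs. Lum read 8.07, 7.69 and 5.74 and then 7.45, 7.55 and 8.65. Both were lowest on control replicate 3 and highest on Cre replicate 3. The log2 difference was 0.36 ± 0.36 SE for Dcn (limma adjusted p = 0.65; 95% interval -0.46 to 1.18) and 0.72 ± 0.55 SE for Lum (adjusted p = 0.52; interval -0.51 to 1.94), and both intervals include 0 and a difference of 1. Without Cre replicate 3 the Dcn difference was -0.01. Without control replicate 3 the Lum difference was 0.0045. With the cardiac covariate the differences were larger, 1.02 for Dcn (adjusted p = 0.23) and 2.06 for Lum (adjusted p = 0.057), and neither passed.

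**Figure D4:**
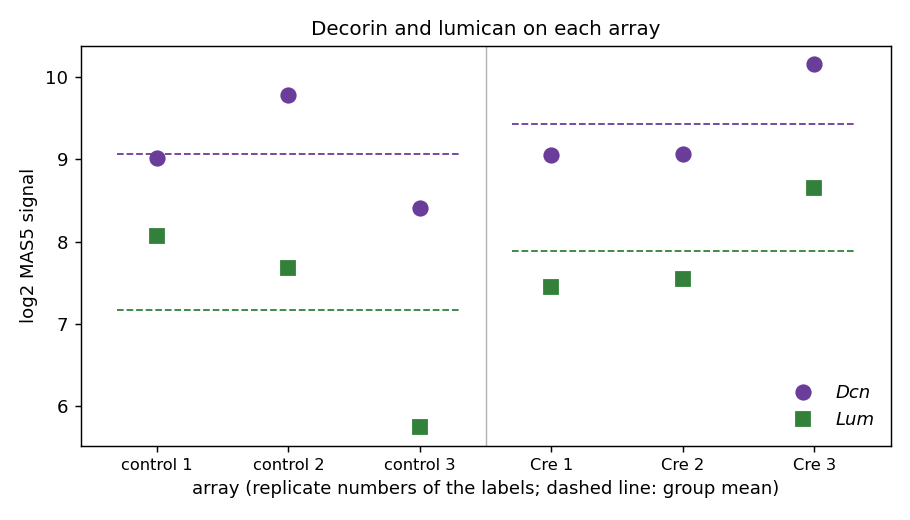
Log2 MAS5 signal (vertical axis) of the brightest probe sets of Dcn (circles) and Lum (squares) on each array (horizontal axis), with dashed lines at the group means. Control-labelled replicate 3 is the lowest array for both genes (8.41 and 5.74) and Cre replicate 3 the highest (10.16 and 8.65).

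The molecules that versican and the leucine-rich proteins work with were read from further gene lists. Versican is cut by proteases of the ADAMTS family, and of 11 tested proteases and partners 1 rose, 3 fell and 7 did not pass; the median of the list was -0.23. Adamts1, a versican-cleaving protease, read 9.39, 9.53 and 9.69 in control and 8.85, 8.93 and 8.75 in Cre lungs (-0.69 ± 0.11 SE, limma adjusted p = 0.014). Adamts8 fell as well, from 5.22, 4.97 and 5.35 to 4.19, 3.71 and 4.08 (-1.19 ± 0.25 SE, adjusted p = 0.038). Its Cre mean of 3.99 lay at the filter level of 4.0, where signals carry much noise. Timp3, which inhibits such proteases, fell from 11.07, 11.10 and 11.58 to 10.13, 10.31 and 10.10 (-1.07 ± 0.15 SE, adjusted p = 0.0090). Adamts20, another versican-cleaving protease, rose from 5.92, 5.67 and 4.87 to 6.96, 6.89 and 6.76 (1.38 ± 0.26 SE, adjusted p = 0.024). The list thus held enzymes that moved in opposite directions, together with an inhibitor that fell.

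Of 12 tested binding partners 1 rose, 1 fell and 10 did not pass (median -0.17). The fibrillin gene Fbn2, whose protein forms microfibrils, rose (0.66 ± 0.11 SE, limma adjusted p = 0.017), and the gene of the matrix glycoprotein tenascin C, Tnc, fell (-0.75 ± 0.11 SE, adjusted p = 0.011). Of 10 tested genes of other hyaluronan-binding proteoglycans, link proteins, hyaluronan synthases, receptors and hyaluronidases 1 fell, Lyve1, the hyaluronan receptor of lymphatic vessels and some macrophages (-0.49 ± 0.10 SE, adjusted p = 0.036), and the hyaluronan receptor gene Hmmr, which is also a mitotic gene, had a difference of 0.55 ± 0.13 SE (adjusted p = 0.057). Acan, which encodes aggrecan, did not reach the filter, with means of 3.93 ± 0.45 and 3.86 ± 0.55 (SD, n = 3 each).

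None of 11 tested genes of fibrillar and beaded collagens and their cross-linking enzyme passed, and none of 25 genes that build glycosaminoglycan chains. The median log2 differences were 0.01 and -0.08. The nearest to the threshold among the collagens were Col14a1, whose collagen binds decorin (0.39 ± 0.09 SE, limma adjusted p = 0.055) and Col6a1 (-0.39 ± 0.11 SE, adjusted p = 0.084). Among the chain synthesis genes they were 2 genes of sulfate supply and turnover, the transporter gene Slc26a2 (-0.33 ± 0.11 SE, adjusted p = 0.14) and the phosphatase gene Bpnt2 (0.44 ± 0.15 SE, adjusted p = 0.14). Of 9 further small leucine-rich genes on the array only Podn and Ecm2 reached the filter, with differences of -0.34 ± 0.17 SE (adjusted p = 0.31) and -0.36 ± 0.29 SE (adjusted p = 0.56). Of 14 tested lung mesenchyme markers 1 rose, the ligand gene Wnt2 (0.65 ± 0.09 SE), and none fell (median 0.01).

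**Figure D5:**
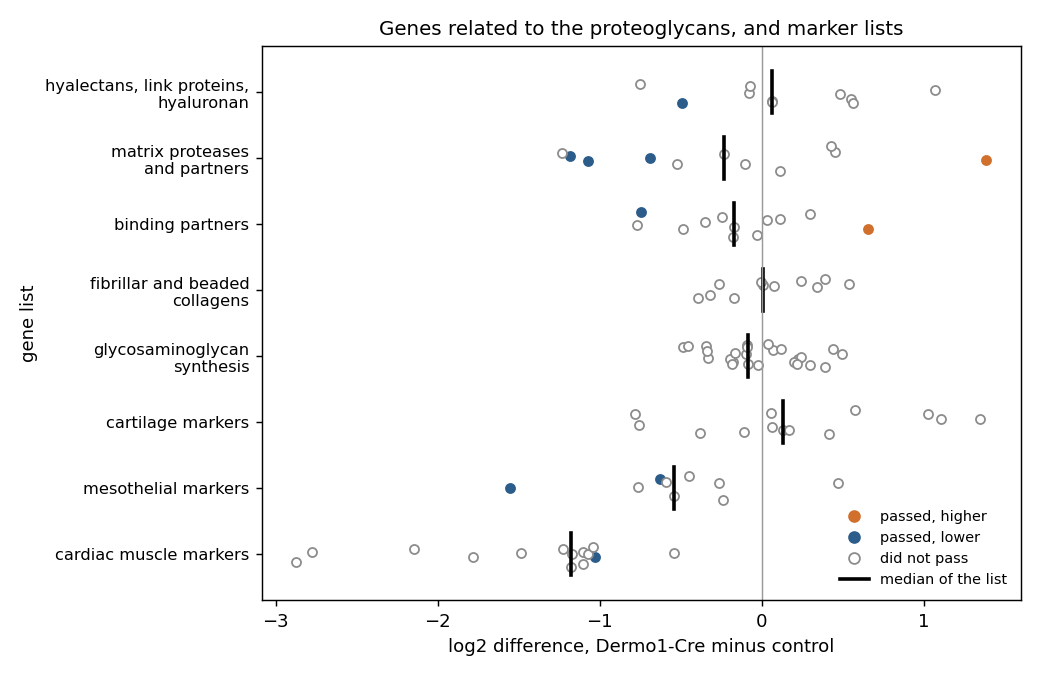
Log2 difference, Cre minus control (horizontal axis), of each tested gene of 8 lists (vertical axis), by the brightest probe set of the gene, with a black line at the median of each list; filled points passed an adjusted p of 0.05. The collagen, glycosaminoglycan and cartilage lists hold no filled point, the protease list holds 3 lower and 1 higher, and the cardiac list has its median at -1.17.

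Among 12253 other named genes, the 5 whose signal followed the brightest Vcan probe set most closely over the 6 arrays were Syce2, Fscn1, Slf1, Far2 and Fmnl2, with Pearson correlations from 0.9968 to 0.9995. The 5 closest to Chad, whose Cre values are near the floor and carry much noise, were Cyth3, Fzd4, Mettl21e, Nbl1 and Atp6v0d1, from 0.9922 to 0.9978. These values describe likeness over 6 arrays that fall into 2 groups, and the group difference is shared by every gene so chosen. Fscn1, the gene of the actin-bundling protein fascin, differed by 0.78 ± 0.11 SE (log2, limma adjusted p = 0.0086).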

How the data were processed

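Total RNA of 6 lungs was hybridised to Affymetrix arrays as biotin-labelled cRNA. The deposited values are log2 signals made with MAS5 and affy, per the submitters' processing notes, without versions. Raised to the power of 2 their trimmed mean was 150.04 to 150.05 on every array; the sources used here give no other scaling step. They were used as deposited. Of 45101 probe sets 64 controls were left out, and of the rest 34945 had 1 gene symbol, 932 several and 9160 none. Probe sets with a mean at or above the 40th percentile (27022) entered a fit with lmFit and eBayes of limma 3.58.1 under R 4.3.3 (eBayes with an intensity trend, two-sided, 4 residual degrees of freedom), with Benjamini-Hochberg adjustment over all of them. The fit was also run on simulated arrays with independent noise, which hold no tissue differences shared by many genes. The brightest probe set, by its mean over 6 arrays, stood for a gene. Of 189 entries in 14 lists 182 were matched. All members, every list gene past the threshold and 2 genes of each related list with the smallest p are named; marker genes were added for their levels. Members and lists were chosen with earlier results of these data known. The labels call the animals biological replicates, and their number limits the precision. Alternatives were other scalings, offsets of 1 and 64, other filters, no intensity trend, array weights, a replicate block, each array left out, 3 covariates and averaged probe sets per gene.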

Additional observations from a re-analysis of the deposited data

How the results depend on the processing

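Over 19 alternative fits the 24 tested member probe sets kept their direction except in 4 cases, none of which passed: Hapln1 set 1 without control replicate 1 (-0.27 to 0.047 over the fits without 1 array) and at 0.15 with the cardiac marker mean as a covariate, Aspn set 1 at 0.056 with that covariate, and Dcn without Cre replicate 3 (-0.010 to 0.71 over the fits without 1 array). The count of 11 member probe sets was 7 with arrays shifted to a common median, 3 without an intensity trend, 2 with the cardiac covariate and 3 to 5 without 1 array; 5 genes passed when a gene's probe sets were averaged, Aspn among them. The count of 963 over all probe sets was 171 without an intensity trend and 277 with the cardiac covariate. It was 587 with fetal sex as a covariate and 314 to 495 without 1 array. The labels give no sex. Sex was inferred from Xist and Y-linked signals, by which control replicate 1 and Cre replicate 2 were read as female. The cause of these changes in the counts was not tested. Fits without 1 array hold fewer samples, and both they and fits with a covariate leave fewer residual degrees of freedom. The Vcan difference by exact permutation stayed positive under the other scalings and offsets.

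With the replicate number as a block the counts were 11 and 1309. Same-numbered lungs had correlations of -0.01, 0.20 and 0.14 between their deviations from the group means, and control replicate 1 correlated best with Cre replicate 2. Those 2 lungs were the ones read as female. The labels state no pairing, and with 3 arrays in each group these correlations cannot decide whether the numbers pair the animals. Signals near the floor limit Chad and the 7 member probe sets below the filter.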
